A study of Arabidopsis thaliana with 4 samples.

Results

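The genes described here are CO (CONSTANS), 4 CONSTANS-like genes (COL1 to COL4) and 5 genes of factors with a single B-box (BBX28 to BBX32) of Arabidopsis thaliana. They were picked by locus code, and all 10 had a row among the 27416 genes measured. B-box proteins are plant transcription factors and cofactors whose zinc-binding B-box mediates contact with other proteins. The CO-like proteins also carry a CCT domain that takes part in DNA binding, and CO is known for switching on the florigen gene FT in the leaf vasculature under long days. The proteins BBX28 to BBX32 lack that domain and are known mainly for holding back other B-box proteins and HY5, a bZIP factor of seedling greening. Cryptochromes enter this pathway because light-activated cryptochrome inhibits the COP1-SPA ubiquitin ligase, which marks CO and HY5 for breakdown. The transgenes of this study hold only the amino-terminal part of a cryptochrome, and whether that part acts on this ligase was not tested.

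The study sequenced poly(A) RNA of Col-0 seedlings in 4 libraries. Every seedling was a cry1 mutant, without the blue-light receptor cryptochrome 1, and carried a transgene driven by 35S, a promoter active in most tissues. The group CNT1 (2 libraries, 35S::CNT1-NLS-YFP;cry1) expressed the amino-terminal, photolyase-like part of CRY1, fused to a signal for nuclear import and to the fluorescent protein YFP. The group CNT1-G283E (2 libraries, 35S::CNT1-G283E-NLS-YFP;cry1) expressed the same fusion carrying the G283E substitution. After 3 days in the cold on medium with 1% sucrose and 12 h of white light, both groups spent 4 days in blue light at 15 μmol/m2/s (a growth time of 4.5 days). The labels do not say how many transgenic lines stand behind a group, whether the replicates were separate cultures or at what hour seedlings were taken. The p-values therefore measure the spread between these libraries, which may be technical, and the genotype cannot be told apart from effects of the insertions.

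Levels are the deposited RPKM (reads scaled by transcript length and by library depth), which came from 28524534 and 28098772 reads in CNT1 and from 27065174 and 24436863 reads in CNT1-G283E, as recovered from the values. The CRY1 row, to which transcripts of either transgene can contribute, stood at 824 ± 1.56 RPKM in the CNT1 group and 1094 ± 82.0 RPKM in the CNT1-G283E group (SD, n = 2 each) and so does not check the labels. Differences are given as CNT1 minus CNT1-G283E on the log2(RPKM + 1) scale, here called log2 fold changes, a scale that understates the change of low genes, and a gene is called at a limma adjusted p under 0.05 over the 19201 genes tested. Between the groups 60.0% of the tested genes were called, 31.1% higher and 29.0% lower in CNT1. Tissue and stress markers moved as well. All 6 mesophyll markers were higher in CNT1 (summed level 25991 to 26142 RPKM in the CNT1 group and 6124 to 6258 RPKM in the CNT1-G283E group). All 6 xylem markers were lower (170 to 171 RPKM in the CNT1 group and 305 to 323 RPKM in the CNT1-G283E group), and 6 of 7 rapid stress-induced genes were higher and 1, TCH4, lower (708 to 721 RPKM in the CNT1 group and 298 to 336 RPKM in the CNT1-G283E group). None of these markers was at 0 in any library. In seedling RNA, fewer cells of a type and less RNA per cell cannot be told apart. TCH4 was not called without CNT1 replicate 1 or without CNT1 replicate 2. Nor was it called when genes of lower level were also tested (limma adjusted p = 0.110). The part of these shifts in the results below was not tested.

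Of the 10 genes, 3 rose in CNT1 (CO, COL3 and BBX32), 3 fell (BBX28, BBX30 and BBX31) and 4 were not called (COL1, COL2, COL4 and BBX29). The 6 called of 10 stand beside 60.0% of all tested genes, so the count is that of the background. The values of the groups did not overlap for 7 of the 10 genes, beside 80.9% of all tested genes. All 10 passed the filter of at least 1 RPKM in at least 2 libraries, but BBX32 passed it only through CNT1, the group in which it is high. BBX31 reached 1 RPKM in both CNT1-G283E libraries, where it is high, but in only 1 of the CNT1 libraries. None of the changes reached 2-fold on the log2(RPKM + 1) scale, which 9.19% of the tested genes did. As ratios of mean RPKM, they ran from 3.42-fold higher for BBX32 to 2.56-fold lower for BBX31. A search of the translated coding sequences for the B-box spacing of cysteine, aspartate or asparagine, and histidine residues found 2 matches in CO and in each of COL1 to COL4, and 1 match in each of BBX28 to BBX32.

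**Figure D1:**
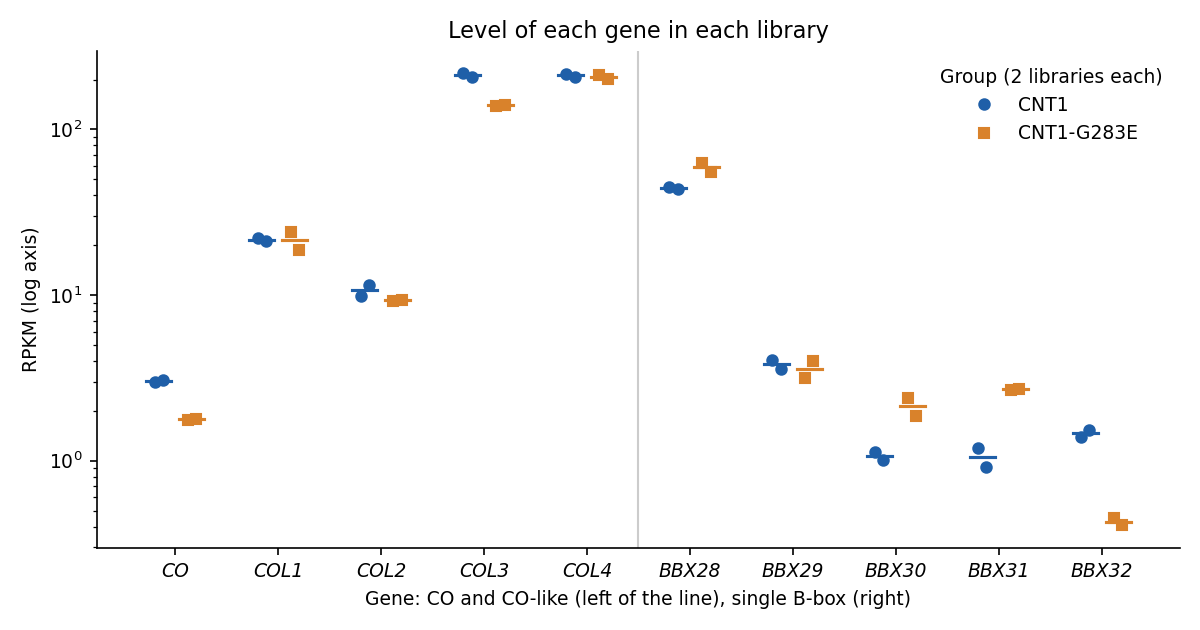
RPKM of each of the 10 genes in each library on a log axis, CNT1 (circles) left of CNT1-G283E (squares), with a short line at the mean of the 2 libraries of a group. COL3, CO and BBX32 stand higher in CNT1, BBX28, BBX30 and BBX31 stand lower, and the 2 groups overlap for COL1, COL4 and BBX29.

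CO (AT5G15840, chromosome 5, 5170162 to 5173085 in TAIR10.1), the activator of FT, was among the low genes of the set. It was read at 2.97 and 3.07 RPKM in the CNT1 libraries and at 1.76 and 1.80 RPKM in the CNT1-G283E libraries. Both CNT1 libraries lay above both CNT1-G283E libraries. The distance between the groups was many times that between replicates, but the replicates lay closer together than their counting error. The log2 fold change was 0.53 ± 0.103 (SE; limma adjusted p = 0.00277), a 1.70-fold higher mean in CNT1. Behind these values stood, at the shortest transcript length that holds the coding sequence and so as the fewest reads possible, 114 and 116 reads in CNT1 and 64 and 59 reads in CNT1-G283E, and the ratio of the summed reads, corrected for depth, had an exact 95% interval of 1.36 to 2.13 that covers counting error only. On the opposite strand the reference annotates AT5G15843, a protein-coding gene overlapping CO over 1967 bases and with no row of its own. Nothing in the sources says whether reads were counted by strand, so reads of CO and of this gene cannot be told apart. The overlap is that of the annotated genes. The CO values gave whole reads at 1344 bases, against 2691 in the longest-coding annotated CO transcript, so the counted model may overlap less.

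COL1 (AT5G15850, chromosome 5, 5176091 to 5177897), the neighbour of CO on the same strand and a gene with a daily rhythm, was not called. It had 22.1 and 21.1 RPKM in CNT1 against 24.0 and 18.7 RPKM in CNT1-G283E. The CNT1 values lay between the 2 CNT1-G283E values, which differed from each other by 24.9% of their mean. The difference was 0.02 (log2; 95% interval -0.22 to 0.27; limma adjusted p = 0.854). Without CNT1-G283E replicate 1 COL1 was called higher, at 0.20, and without CNT1-G283E replicate 2 its sign turned, at -0.15, so its value turns on which CNT1-G283E library is kept. The whole COL1 gene lies within AT5G15845, a long non-coding RNA of the opposite strand that has no row in the files.

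COL2 (AT3G02380, chromosome 3, 487069 to 489467), the member whose protein is nearest to COL1, with 69.2% identical residues over the length of the shorter, was not called either. Its values were 9.86 and 11.6 RPKM in the CNT1 group and 9.24 and 9.37 RPKM in the CNT1-G283E group. The groups did not overlap, but the 2 CNT1 libraries differed from each other by more than the nearer of them differed from CNT1-G283E. The difference was 0.18 (log2; 95% interval -0.02 to 0.38; limma adjusted p = 0.106), and it was called, at 0.29, without CNT1 replicate 1. As annotated, COL2 overlaps AT3G02370 and AT3G02390 on the opposite strand, over 771 and 688 bases, and here too the reads cannot be told apart. Its values gave whole reads at 1315 bases, against 2256 in the annotated transcript, so the counted model may overlap less.

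COL3 (AT2G24790, chromosome 2, 10566836 to 10568145), a factor known to bind COP1 and to promote seedling responses to light, was the best-measured change of the set. Its level was 218 and 206 RPKM in the CNT1 group and 139 and 141 RPKM in the CNT1-G283E group. The groups stood far apart compared with their replicates. The log2 fold change was 0.59 ± 0.042 (SE; limma adjusted p = 1.21e-05), a ratio of 1.51, from 13754 reads in CNT1 and 8272 in CNT1-G283E.

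COL4 (AT5G24930, chromosome 5, 8589457 to 8590949), described in Arabidopsis as a repressor of flowering, was read at 215 and 208 RPKM in the CNT1 group and at 212 and 202 RPKM in the CNT1-G283E group. The groups overlapped. Its difference was 0.03 (log2; 95% interval -0.065 to 0.13; limma adjusted p = 0.525), so that the interval of this well-covered gene held no change as large as that of COL3. COL3 and COL4 are each other's nearest relatives in the set, with 66.0% identical residues over the length of the shorter protein, and together they gave most of the summed RPKM of the 10 genes. COL3 made up 41.9% and 41.2% of that sum in CNT1 and 30.5% and 32.3% in CNT1-G283E, and COL4 made up 41.3% and 41.6% in CNT1 and 46.3% and 46.1% in CNT1-G283E. The RPKM of COL3 was 1.01 and 0.990 times that of COL4 in the CNT1 libraries, against 0.659 and 0.699 times in the CNT1-G283E libraries. An exact 2-sided permutation test of this log ratio with 2 libraries a group gave p = 0.333, the smallest that the design allows. The longest run of identical bases between the 2 transcripts was 35, the longest of any pair among the 10 genes, and the treatment of reads that match several genes is not known.

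The upstream sequences of this pair are shown because COL3 was called and its close relative COL4, at a like level in CNT1, was not. Each line gives the 250 bases before the annotated start of the gene in TAIR10.1 (RefSeq), written 5′ to 3′ on the strand of the gene, with every match to the searched motifs in capitals.
COL3 (chr2:10566586-10566835, plus strand): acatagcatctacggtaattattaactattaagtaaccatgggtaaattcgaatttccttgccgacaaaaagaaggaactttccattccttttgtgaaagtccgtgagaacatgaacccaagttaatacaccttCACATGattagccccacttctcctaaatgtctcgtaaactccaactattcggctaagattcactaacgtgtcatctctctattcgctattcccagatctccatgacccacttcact
COL4 (chr5:8589207-8589456, plus strand): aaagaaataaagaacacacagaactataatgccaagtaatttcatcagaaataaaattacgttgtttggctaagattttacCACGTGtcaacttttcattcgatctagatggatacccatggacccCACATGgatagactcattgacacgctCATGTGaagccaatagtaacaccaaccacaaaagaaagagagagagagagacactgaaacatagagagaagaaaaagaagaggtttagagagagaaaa
The motifs, searched on both strands, were the G-box CACGTG, the E-box variant CACATG that PIF factors also bind, the evening element AAAATATCT and the CCA1-binding site AAAAATCT, all known from light or clock regulation, and no matches overlapped. The COL4 window held 1 G-box and 2 matches to CACATG or its reverse complement CATGTG, and the COL3 window held 1 CACATG. The annotated COL4 transcript, of 1089 bases, holds nothing beyond its coding sequence, so by that annotation the COL4 window ends at the start codon. The COL4 values, however, gave whole reads at 1599 bases and not at 1089. The counted model may thus be longer than the annotated transcript, and part of the COL4 window may be transcribed. The annotated COL3 transcript has 1207 bases, of which 885 are coding. The 2 windows may therefore lie before unlike features and are not a matched comparison. Among 27443 windows of the same length before protein-coding genes, 6.49% held a G-box, 11.1% held CACATG, 2.36% the evening element and 6.69% the CCA1-binding site. COL2, which is not printed here, held 1 evening element.

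BBX28 (AT4G27310, chromosome 4, 13675537 to 13677055), which in Arabidopsis keeps HY5 from DNA, fell modestly in CNT1. Among BBX28 to BBX32 it had by far the highest level. It was read at 44.6 and 43.5 RPKM in the CNT1 group and at 62.5 and 55.7 RPKM in the CNT1-G283E group. The groups did not overlap, and the gap between them was larger than the distance between the 2 CNT1-G283E libraries. The log2 fold change was -0.41 ± 0.060 (SE; limma adjusted p = 0.000590), a 1.34-fold lower mean. BBX28 was 8.58% and 8.70% of the summed RPKM of the 10 genes in CNT1, against 13.7% and 12.7% in CNT1-G283E.

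BBX29 (AT5G54470, chromosome 5, 22114304 to 22115539), whose protein shares 58.1% of its residues with BBX28, was not called. It had 4.04 and 3.58 RPKM in the CNT1 group and 3.17 and 4.00 RPKM in the CNT1-G283E group. The groups overlapped and the difference was 0.07 (log2; 95% interval -0.21 to 0.35; limma adjusted p = 0.624), with 93 to 125 reads a library. Its sign turned, at -0.058, without CNT1-G283E replicate 1.

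BBX30 (AT4G15248, chromosome 4, 8708841 to 8709482) and BBX31 (AT3G21890, chromosome 3, 7708833 to 7709933) encode the shortest proteins of the set, of 117 and 121 residues with 65.0% identity over the shorter. They are known as microProteins that join CO to the corepressor TOPLESS and so delay flowering, and as repressors of seedling greening whose genes HY5 binds. Both fell in CNT1. BBX30 was read at 1.13 and 1.01 RPKM in the CNT1 group and at 2.39 and 1.87 RPKM in the CNT1-G283E group, and BBX31 at 1.19 and 0.917 RPKM in the CNT1 group and at 2.68 and 2.70 RPKM in the CNT1-G283E group. Neither pair of groups overlapped. The log2 fold change of BBX30 was -0.59 ± 0.129 (SE; limma adjusted p = 0.00526) and that of BBX31 was -0.85 ± 0.119 (SE; limma adjusted p = 0.000506). As ratios of mean RPKM they were 1.98-fold and 2.56-fold lower in CNT1. Fitted without the low-value filter, the log2 fold change of BBX31 was -0.85 ± 0.102 (SE; limma adjusted p = 0.00187).

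These are low values. BBX30 rested on 17 and 15 reads in CNT1 and 34 and 24 in CNT1-G283E. BBX31 rested on 21 and 16 reads in CNT1 and 45 and 41 in CNT1-G283E. Corrected for depth, CNT1-G283E had 1.99 times the summed BBX30 reads of CNT1 (exact 95% interval 1.27 to 3.17) and 2.56 times its BBX31 reads (1.72 to 3.87), for counting error only. The RPKM of BBX31 was 1.05 and 0.903 times that of BBX30 in the CNT1 libraries, against 1.12 and 1.45 times in the CNT1-G283E libraries. With 2 libraries a group, an exact 2-sided permutation test of this log ratio also gave p = 0.333. Each of the 2 genes lies beside another B-box gene, BBX9 284 bases from BBX30 and BBX10 486 bases from BBX31. BBX9 is listed at 0 in every library, and BBX10 had 0 reads in both CNT1 libraries and 4 and 2 in the CNT1-G283E libraries, too few to compare.

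The upstream sequences of the 2 microProtein genes are shown in the same way, because these closely related genes fell together.
BBX30 (chr4:8708591-8708840, plus strand): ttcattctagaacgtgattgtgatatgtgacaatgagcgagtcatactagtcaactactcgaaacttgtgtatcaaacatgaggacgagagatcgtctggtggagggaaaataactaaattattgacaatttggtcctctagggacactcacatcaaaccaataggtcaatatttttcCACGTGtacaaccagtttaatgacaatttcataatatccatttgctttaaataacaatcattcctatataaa
BBX31 (chr3:7709934-7710183, minus strand): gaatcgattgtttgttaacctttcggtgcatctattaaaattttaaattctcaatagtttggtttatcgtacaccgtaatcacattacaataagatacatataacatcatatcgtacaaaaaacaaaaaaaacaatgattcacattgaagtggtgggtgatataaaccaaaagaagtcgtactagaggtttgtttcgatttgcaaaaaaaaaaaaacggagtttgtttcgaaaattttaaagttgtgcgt
The BBX30 window held 1 G-box, 72 to 67 bases before the annotated start, and the BBX31 window held none of the 4 motifs. The windows of BBX32, CO, COL1 and BBX29 held none either, and that of BBX28 held 2 matches to the CCA1-binding site or its reverse complement AGATTTTT. The missing matches say only that these letters are not in these windows.

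BBX32 (AT3G21150, chromosome 3, 7412445 to 7413727), which in Arabidopsis interferes with HY5 and BBX21, joins COL3 in delaying flowering and binds EMF1, moved the other way. It was read at 1.40 and 1.54 RPKM in the CNT1 group and at 0.450 and 0.407 RPKM in the CNT1-G283E group. Both CNT1 libraries had over 3 times the level of either CNT1-G283E library. Because it passed the low-value filter only through CNT1, the filtered test (0.79 ± 0.124 on the log2 scale, SE; limma adjusted p = 0.000955) is no independent support. Fitted without the filter, the log2 fold change was 0.79 ± 0.076 (SE; limma adjusted p = 0.000863), and with each library left out in turn it ran from 0.75 to 0.83 (limma adjusted p = 0.0207 to 0.0280). The ratio of mean RPKM was 3.42. The 36 and 39 reads in CNT1 and 11 and 9 in CNT1-G283E gave a depth-corrected ratio of 3.41 with an exact 95% interval of 2.06 to 5.90. BBX32 ends within 13 bases of overlap with AT3G21140 on the same strand, which had 14.0 to 14.7 RPKM in all 4 libraries.

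**Figure D2:**
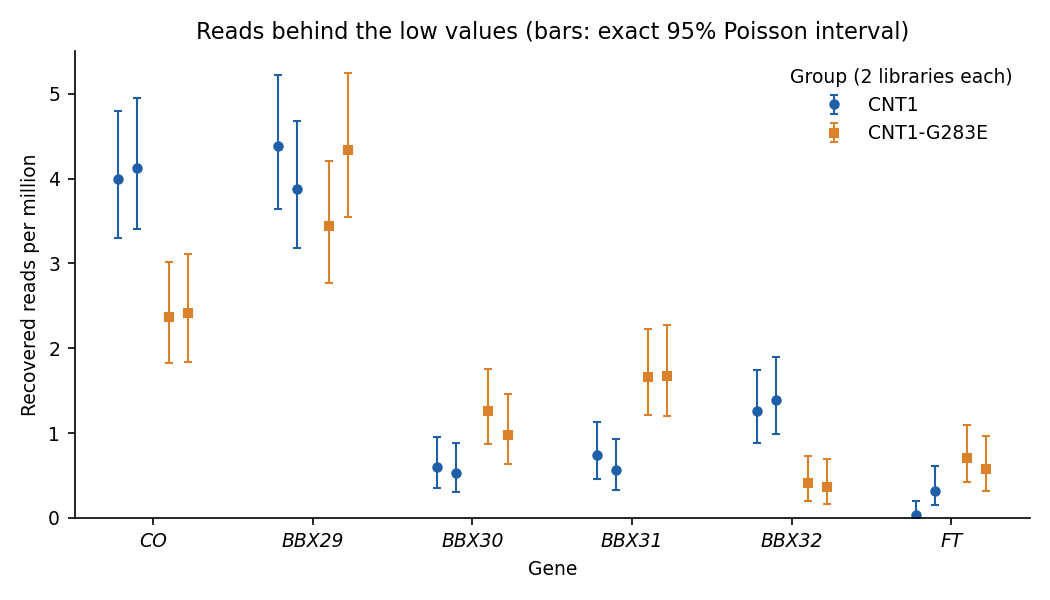
Recovered reads scaled to library depth for the 5 lowest genes of the set and for FT, 1 point per library, CNT1 (circles) left of CNT1-G283E (squares), with exact 95% Poisson bars that cover counting error only. BBX32 and CO stand higher in CNT1, BBX30, BBX31 and FT stand lower, and the BBX29 libraries are mixed.

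Because RPKM is scaled by length, the genes can be ordered by level within a group. In both groups COL3 and COL4 led, followed by BBX28, COL1, COL2 and BBX29. COL3 and COL4 overlapped in CNT1, at 206 to 218 and 208 to 215 RPKM, and stood apart in CNT1-G283E. The 4 lowest genes changed places. In CNT1 the order was CO, BBX32, BBX30 and BBX31, and BBX30 and BBX31 overlapped. In CNT1-G283E it was BBX31, BBX30, CO and BBX32, with no overlap between neighbours. These ranges of 2 libraries leave out counting error, so the order of such low genes is uncertain. In the CNT1-G283E libraries BBX30 rested on 34 and 24 reads, and CO was 0.737 and 0.962 times as high as BBX30. CO was 2.51 and 3.35 times as high as BBX31 in the CNT1 libraries, against 0.657 and 0.665 times in the CNT1-G283E libraries. BBX32 was 1.18 and 1.67 times as high as BBX31 in the CNT1 libraries, against 0.168 and 0.151 times in the CNT1-G283E libraries. For both log ratios the exact 2-sided permutation test gave p = 0.333, the smallest possible with 2 libraries a group.

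By distance between log2(RPKM + 1) profiles centred on their own means, over 4 libraries and among genes of at least 5 RPKM, the profiles nearest to COL3 were those of AT5G01260 (0.0117), AT4G30330 (0.0224) and IMD3 (0.0234), with log2 fold changes of 0.59, 0.61 and 0.60. Nearest to BBX31 were AT4G18340 (0.0215), AT3G03000 (0.0448) and AT3G13910 (0.0486), at -0.84, -0.88 and -0.82. With 4 libraries in 2 groups, such likeness shows little beyond a like difference between the groups.

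Among the 22 other B-box genes, 19 were tested, of which 6 rose and 6 fell in CNT1. Of all tested genes, 31.1% rose and 29.0% fell. The median was 0.02, against a median of 0.02 over all tested genes. The changes of at least 2-fold were those of BBX14, a relative of CO with a CCT domain, and BBX16 of the same class. BBX14 was read at 147 ± 2.27 RPKM in the CNT1 group and 66.7 ± 3.77 RPKM in the CNT1-G283E group, and BBX16 at 6.24 ± 0.0422 RPKM in the CNT1 group and 2.23 ± 0.0575 RPKM in the CNT1-G283E group (SD, n = 2 each). Their log2 fold changes were 1.13 ± 0.048 and 1.16 ± 0.092 (SE; limma adjusted p = 8.40e-07 and 2.08e-05). BBX15 and BBX17, the other members of that class and named after their values were seen, also rose, by 0.66 and 0.84 on the log2 scale. All 4 exceeded the change of CO and COL3 on this scale. BBX6 (COL5), a further CO-like gene, fell by 0.31 on the log2 scale (limma adjusted p = 0.000325). BBX21, the partner of BBX32, fell to 109 ± 2.21 RPKM in CNT1, against 140 ± 6.92 RPKM in CNT1-G283E (limma adjusted p = 0.000323). BBX6 and BBX21 were also named after their values were seen.

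**Figure D3:**
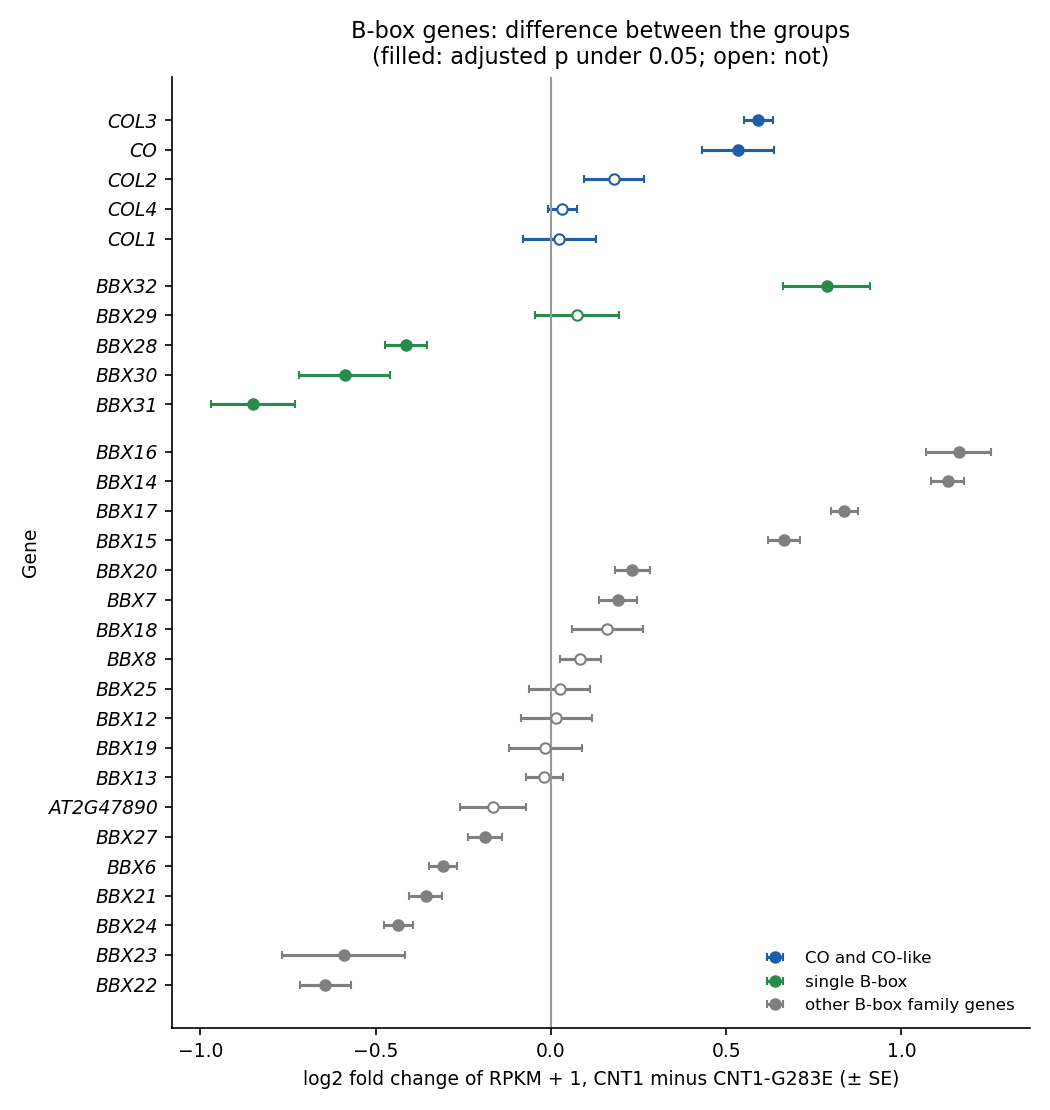
Log2 fold change of RPKM + 1 (CNT1 minus CNT1-G283E) with its SE for the 10 genes and the 19 other B-box genes tested, filled where the limma adjusted p is under 0.05. BBX32 and BBX31 are the extremes of BBX28 to BBX32 at 0.79 and -0.85, while BBX14 and BBX16 exceed all 10 genes at 1.13 and 1.16.

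The genes upstream of CO moved in both directions, as did all tested genes, of which 31.1% were higher and 29.0% lower in CNT1. Of 19 regulators of CO, 8 rose, 5 fell and 6 were not called, with a median of -0.03; without CNT1 replicate 1 the counts were 4 and 3, and without CNT1 replicate 2 they were 5 and 3. CDF1, a DOF factor that represses CO, was read at 13.4 ± 0.402 RPKM in the CNT1 group and 6.85 ± 0.275 RPKM in the CNT1-G283E group (SD, n = 2 each; limma adjusted p = 2.70e-05). FKF1, the blue-light receptor that removes CDF proteins, rose by 0.39 on the log2 scale and TCP4, an activator of CO, by 0.57. CDF2 and FBH3, a bHLH activator of CO, fell by 0.34 and by 0.39. AT1G69570 was listed as CDF5, a further CDF gene, though the reference leaves it without a symbol. It moved the opposite way to CDF1 and was 3.49-fold lower in CNT1, at 11.0 ± 1.15 RPKM against 38.4 ± 0.767 RPKM in CNT1-G283E. COP1 itself was at -0.04 and GI, a clock-linked partner of FKF1, at -0.12, and neither was called. These 2 were named after their values were seen.

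FT, the target of CO, was barely detected and had lower values in CNT1, but its call rested on single libraries. It was read at 0.0410 and 0.375 RPKM in the CNT1 group and at 0.821 and 0.670 RPKM in the CNT1-G283E group, from 1 and 9 reads against 19 and 14. Both CNT1 libraries lay below both CNT1-G283E libraries, but FT did not pass the low-value filter. Fitted without that filter, its log2 fold change was -0.54 ± 0.143 (SE; limma adjusted p = 0.0288). That call was lost without CNT1 replicate 1 (-0.34; limma adjusted p = 0.101), without CNT1-G283E replicate 1 (-0.48; 0.214) and without CNT1-G283E replicate 2 (-0.61; 0.158), and kept without CNT1 replicate 2 (-0.74; 0.0358). The depth-corrected ratio of CNT1 to CNT1-G283E was 0.276, with an exact 95% interval of 0.121 to 0.573 for counting error. It was 0.500 (0.210 to 1.07) without CNT1 replicate 1 and 0.0547 (0.00134 to 0.327) without CNT1 replicate 2. Of the 7 phloem markers, which mark the tissue in which CO and FT act, 5 fell and 2 rose. Of all tested genes, 29.0% fell and 31.1% rose. Their summed level was 216 to 217 RPKM in the CNT1 group and 236 to 251 RPKM in the CNT1-G283E group, and none was at 0. Of the 2 that rose, PP2-A1, a phloem lectin, was read at 84.7 ± 1.81 RPKM in CNT1, against 68.1 ± 1.96 RPKM in CNT1-G283E (SD, n = 2 each), a log2 fold change of 0.31 (limma adjusted p = 0.000465). SULTR2;1, a sulphate transporter, was at 0.23 (limma adjusted p = 0.0312) and was not called without CNT1 replicate 1, CNT1 replicate 2 or CNT1-G283E replicate 2. Nor was SULTR2;1 called without the low-value filter (limma adjusted p = 0.0624). SUC2, the sucrose transporter of companion cells, was 1.55-fold lower in CNT1, at 57.6 ± 1.40 RPKM against 89.6 ± 7.50 RPKM in CNT1-G283E. The markers named in the text were named after their values were seen. The part of these markers in the CO and FT values was not tested.

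Of 19 genes of the FT module and partners of CO, 17 were tested, and 6 rose and 8 fell, 5 falling without CNT1 replicate 2. The median was -0.06, and of all tested genes 31.1% rose and 29.0% fell. Those higher in CNT1 included TEM2 and TEM1, repressors of FT, by 0.90 and 0.72 on the log2 scale, and NF-YB2, a subunit of the CCAAT-binding complex that CO joins, by 0.51. Those lower included SMZ and SNZ, AP2-type repressors of flowering, at -0.87 and -1.17, and SVP, a MADS-domain repressor of FT, at -0.69. TPL, the TOPLESS corepressor that BBX30 and BBX31 contact, was at -0.06 and was not called.

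Of 12 light-signalling partners of the single B-box factors, 3 rose and 6 fell, 3 falling without CNT1 replicate 1, with a median of -0.08. Of all tested genes, 31.1% rose and 29.0% fell. HY5 was read at 17.8 and 18.1 RPKM in the CNT1 group and at 17.0 and 18.9 RPKM in the CNT1-G283E group. The CNT1 values lay within the range of CNT1-G283E, and the log2 fold change was -0.0014 (limma adjusted p = 0.987). By mean RPKM, RUP1, which returns the UV-B photoreceptor to its inactive form, was 2.34-fold lower in CNT1. The growth-promoting bHLH factors PIF1 and PIF7 were 1.75-fold and 2.87-fold lower. PIF3 of the same family was 1.59-fold higher, PIF5 1.14-fold higher and UVR8, the UV-B photoreceptor itself, 1.23-fold higher. PIF5 was not called without CNT1 replicate 1. HY5 and TPL were named after their values were seen.

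Several of the 10 genes are rhythmic, and some clock genes differed between the groups. Of 10 clock genes, 2 rose, the morning factors LHY (0.86) and CCA1 (0.40), and 3 fell, the pseudo-response regulators PRR9 (-0.69), PRR7 (-0.50) and TOC1 (-0.21), all as log2 fold changes. TOC1 was not called without CNT1 replicate 1. The other 5 were not called, and the median was -0.08. These counts stand beside 31.1% of all tested genes higher and 29.0% lower in CNT1, and so are no more than the background. The part of these shifts in the values of CO, COL1 and COL2 was not tested. Root markers were mixed, with 1 of 8 higher and 3 lower, at a summed level of 2046 to 2053 RPKM in the CNT1 group and 3963 to 4191 RPKM in the CNT1-G283E group, most of it from PYK10. The 1 higher root marker, SCR, was not called without CNT1 replicate 1, CNT1 replicate 2 or CNT1-G283E replicate 1. Nor was SCR called without the low-value filter (limma adjusted p = 0.0538). Of the 2 epidermis markers, ATML1 rose by 0.15 and PDF1 fell by 0.82 on the log2 scale, and ATML1 was not called without CNT1 replicate 1, CNT1 replicate 2 or CNT1-G283E replicate 2. Their summed level was 129 to 140 RPKM in the CNT1 group and 202 to 208 RPKM in the CNT1-G283E group.

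**Figure D4:**
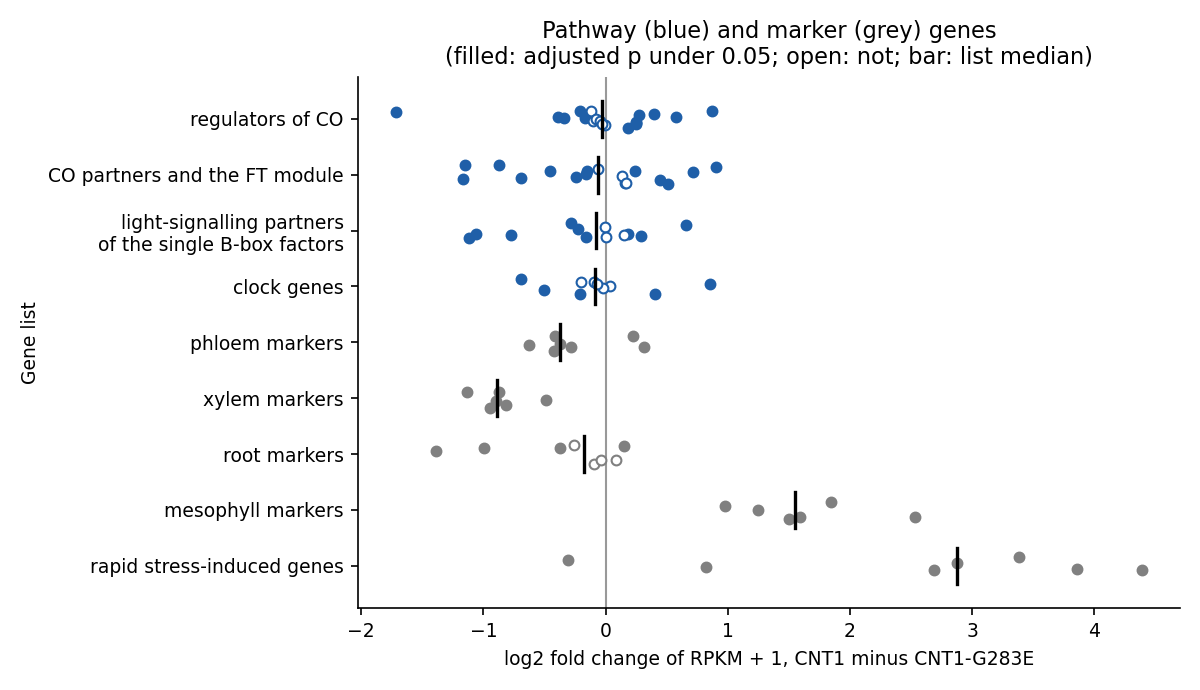
Log2 fold change of RPKM + 1 (CNT1 minus CNT1-G283E) of each tested gene of 4 pathway lists and 5 marker lists, filled where the limma adjusted p is under 0.05, with a bar at the list median and points spread vertically for sight only. The medians of the pathway lists lie between -0.08 and -0.03, while mesophyll markers and rapid stress-induced genes have medians of 1.55 and 2.88 and xylem markers of -0.89.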

How the data were processed

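The authors deposited 1 table per library holding RPKM for 27416 gene models. Reads were aligned with Bowtie2 2.2.2 to TAIR10, per the submitters' processing notes. For the counter, strand use and reads matching several genes, the sources used here give nothing.

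The test was limma 3.58.1 (R 4.3.3) on log2(RPKM + 1) for the 19201 genes that reached 1 RPKM in 2 or more libraries, with trended empirical Bayes and Benjamini-Hochberg adjustment over all genes tested. The design covered counts and normalized values, and the deposited RPKM needed the second. Depths and whole reads were recovered from the RPKM values, all 24360 rows above 0 coming out whole within 0.001 reads. An annotated transcript length was taken where it gave whole reads, in 4879 rows. In the other 19481 rows the shortest fitting length that holds the coding sequence was taken, so their reads are fixed up to a whole-number factor. All recovered reads summed to 100.2% of the depths in each library.

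The members and lists were chosen with earlier results of these data known. Named genes were the 10 members, FT, CRY1, other B-box genes called at 2-fold or more, and, from each pathway list, the up to 3 called genes of smallest adjusted p in each direction. All 130 list genes matched the TAIR10.1 table, whose genome gave coordinates and upstream sequence. The fit was also run on simulated data, whose outcome is not given here and is not used as support. Figures and summaries used Python 3.11.15. The alternatives tried were a pseudocount of 0.1, scaling by quantiles or by the upper quartile, dropping the filter, requiring a mean of 5 RPKM or more, no variance trend, limma-voom on recovered reads, a replicate block and leaving out each library.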

Additional observations from a re-analysis of the deposited data

How the results depend on the processing

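CO, COL3, BBX28, BBX30, BBX31 and BBX32 kept their direction and call in every alternative that could test them. With a mean of at least 5 RPKM, CO and BBX29 to BBX32 were not tested, leaving 1 gene of the set higher and 1 lower in place of 3 and 3. BBX32 failed the filter with either CNT1 library left out, and in fits without the filter, added after seeing the data, it kept its call with any 1 library left out. In the same added fits FT lost its call in 3 of 4. Where a group is left with 1 library, that library is assumed to vary like the others. With each library left out in turn, COL1 ran from -0.15 to 0.20, COL2 from 0.076 to 0.29 and BBX29 from -0.058 to 0.20 (log2). The 2 genes called in such a fit were COL1 without CNT1-G283E replicate 1 (0.20, limma adjusted p = 0.0296) and COL2 without CNT1 replicate 1 (0.29, 0.0498). The cause was not tested. With limma-voom on the recovered reads, which adds no fixed RPKM to low genes, the log2 fold change was 1.72 for BBX32, -1.34 for BBX31, -0.97 for BBX30 and 0.76 for CO, against 0.79, -0.85, -0.59 and 0.53. With the replicate number as a block, the number of genes higher in CNT1 was 5791 and that of genes lower in CNT1 was 5423, against 5964 and 5566 without it, and the calls of the 10 genes were the same. Same-numbered libraries did not deviate together (r = -0.02 over 19201 genes), so the numbers were not taken to pair them. No scaling moved the median of all genes by over 0.1. Of 549 values of 46 other named genes under the alternatives, 526 kept their call and 23 lost it in SCR, SULTR2;1, TCH4, ATML1, PIF5 and TOC1. Of 264 counts of called genes in the pathway and marker lists under the alternatives, 236 stayed close to the main count and 28 moved away from it. Reads per library limit BBX30, BBX31, BBX32 and FT.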
